A study of Mus musculus with 12 samples.

Results

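The 48 genes described here act in G2 phase and mitosis, and they were chosen by symbol from gene function, with cyclin B, kinetochore, spindle and cytokinesis genes as the core. All 48 were found among the 55376 genes of the deposited count table. They were followed in 12 libraries of mouse bone marrow cells in 4 groups of 3. Per the labels, the cells were c-Kit+/Sca-1+/Lin- progenitors of bone marrow, a fraction rich in blood stem cells, which grew in RPMI medium with SCF at 100 ng/ml, IL-6 at 20 ng/ml and the same amount of IL-3, and all were exposed to a retroviral vector and selected with geneticin. The first group carried NUP98-NSD1 and shNizp1#1, the second NUP98-NSD1 and shNizp1#2, the third NUP98-NSD1 and a control shRNA, and the fourth the empty MSCV vector and the control shRNA. NUP98-NSD1 joins a nucleoporin to a histone methyltransferase and occurs in acute myeloid leukaemia, and Nizp1 is a zinc finger protein known to bind NSD1. The shRNAs came from a pLKO.1-puro vector. The sources used here name no strain, age, animal or clone, and no group lacks a vector.

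A cell commits to division when cyclin B binds the kinase Cdk1, which Cdc25 phosphatases switch on. Condensins then compact the chromosomes, kinetochores tie them to the spindle, the checkpoint holds anaphase until every chromosome is attached, and Cdc20 with the anaphase-promoting complex ends the hold by marking securin and cyclin B for destruction. The RNA of most of these genes is known to peak in G2 phase and mitosis, through the complex of MuvB with B-Myb and Foxm1 at promoters that carry a cell cycle genes homology region (CHR), often near CCAAT boxes bound by NF-Y. In blood progenitors they are known chiefly as markers of cycling cells.

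Those promoter elements were looked for in RefSeq promoters of GRCm38.p6, from 250 bases before to 50 bases after the start of each gene, and 40 of the 48 genes had such a window. The CHR was searched as TTTGAA and as TTCGAA, and the CCAAT box as CCAAT, each on both strands. A CHR and a CCAAT word can share at most 1 base. A CHR word stood in 31 of the 40 windows (77.5%), against 21.7% of the windows of 27025 genes. A CCAAT word stood in 30 of them (75%), against 41.1% of all genes, and both words stood together in 27 (67.5%), against 9.65%. At least 2 CCAAT words stood in 21 of the 40 windows (52.5%), against 13.3% of all genes. A word is a match of letters and not a shown binding site. Windows of 30 bases around the CHR word (in capitals) follow for genes of mitotic entry, checkpoint, anaphase, spindle, cytokinesis and chromosome structure, since most of the 48 genes were lowest in the same libraries. They run 5′ to 3′ on the strand of the gene, and where the word lies on the other strand it reads TTCAAA.
Cdk1, chr10:69352966-69352995, minus strand: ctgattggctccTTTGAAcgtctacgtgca
Ccnb2, chr9:70421704-70421733, minus strand: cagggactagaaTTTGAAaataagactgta
Cdc20, chr4:118437344-118437373, minus strand: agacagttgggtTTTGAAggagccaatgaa
Ube2c, chr2:164769888-164769917, plus strand: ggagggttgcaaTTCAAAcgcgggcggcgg
Bub1b, chr2:118598011-118598040, plus strand: tctctccctgggTTCGAAggcttgtcttag
Bub3, chr7:131560315-131560344, plus strand: gagccgttggcgTTCAAAatcagccaatga
Kif11, chr19:37376351-37376380, plus strand: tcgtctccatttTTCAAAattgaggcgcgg
Prc1, chr7:80294434-80294463, plus strand: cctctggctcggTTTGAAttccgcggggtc
Ect2, chr3:27153975-27154004, minus strand: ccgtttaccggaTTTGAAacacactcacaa
Mki67, chr7:135716478-135716507, minus strand: ttagcgccagaaTTTGAAccgccgttttgg
Ncapg, chr5:45669883-45669912, plus strand: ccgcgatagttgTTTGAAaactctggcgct
Smc2, chr4:52439064-52439093, plus strand: tcgctttccatgTTCAAAacggtatagtct

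Total counts ran from 3586538 to 6842589 per library, and levels are given as CPM over the 11994 tested genes after TMM scaling. All 48 genes passed the filter on low counts, and the lowest count of any of them in any library was 34. Zkscan17, the symbol of Nizp1 in the table, had 35.0, 26.2 and 30.4 CPM with shNizp1#1, 29.0, 17.6 and 27.0 CPM with shNizp1#2, and 49.4 to 62.6 CPM in NUP98-NSD1 cells with the control shRNA. Nsd1, whose reads can include those of the construct, had 699 to 788 CPM in NUP98-NSD1 cells with the control shRNA and 139 to 230 CPM with the empty vector. The labelled cell type was checked against markers. The summed level of 7 mast cell genes (Cpa3, Cma1, Fcer1a, Ms4a2, Hdc, Tpsb2 and Kit) was 36400 to 60180 CPM, against 3791 to 4723 CPM for 4 stem and progenitor genes, which also include Kit. Of these 4 genes, Ly6a, which encodes Sca-1, had 23.8 to 277 CPM and Flt3 had 0 to 3.86 CPM. The others were higher, Cd34 with 1140.1 to 2021.5 CPM and Kit with 1930.4 to 3104.6 CPM. A mast cell programme was thus strong in libraries labelled as progenitors, in which Cd34 was also expressed. The labels do not say what a replicate number marks. Libraries with the same number correlated with each other in their deviations from the group means (r from 0.223 to 0.877 over 18 pairs, against a median of -0.196 for other pairs), and the series speaks of independent experiments. A shared number is therefore called an experiment here, which is an inference. In RNA from whole cultures, fewer dividing cells and less RNA per dividing cell cannot be told apart.

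The genes of G2 phase and mitosis were active in every library. Together they took 0.489% to 0.632% of the counts in 10 libraries. The remaining libraries, replicate 2 of shNizp1#1 and replicate 2 of shNizp1#2, gave them 0.318% and 0.352%. Per length, mean levels over the 12 libraries ran from 15.1 TPM for Cenpf to 202 TPM for Top2a, with a median of 61.7 TPM. Top2a, the topoisomerase that untangles sister chromatids, was followed by cyclin B2 (Ccnb2) at 174 TPM and by the centromeric histone Cenpa at 160 TPM. These neighbours in the order overlapped, since Top2a ranged from 115 to 236 TPM over the libraries, Ccnb2 from 95.8 to 218 TPM and Cenpa from 98.9 to 228 TPM. At the low end stood Cenpf, a protein of the outer kinetochore, then Cdc25c at 22.6 TPM and the checkpoint kinase Ttk at 24.3 TPM. Cenpf ranged from 11.7 to 17.8 TPM, Cdc25c from 11.4 to 29.8 TPM and Ttk from 12.2 to 29.7 TPM, so these too overlapped.

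**Figure D1:**
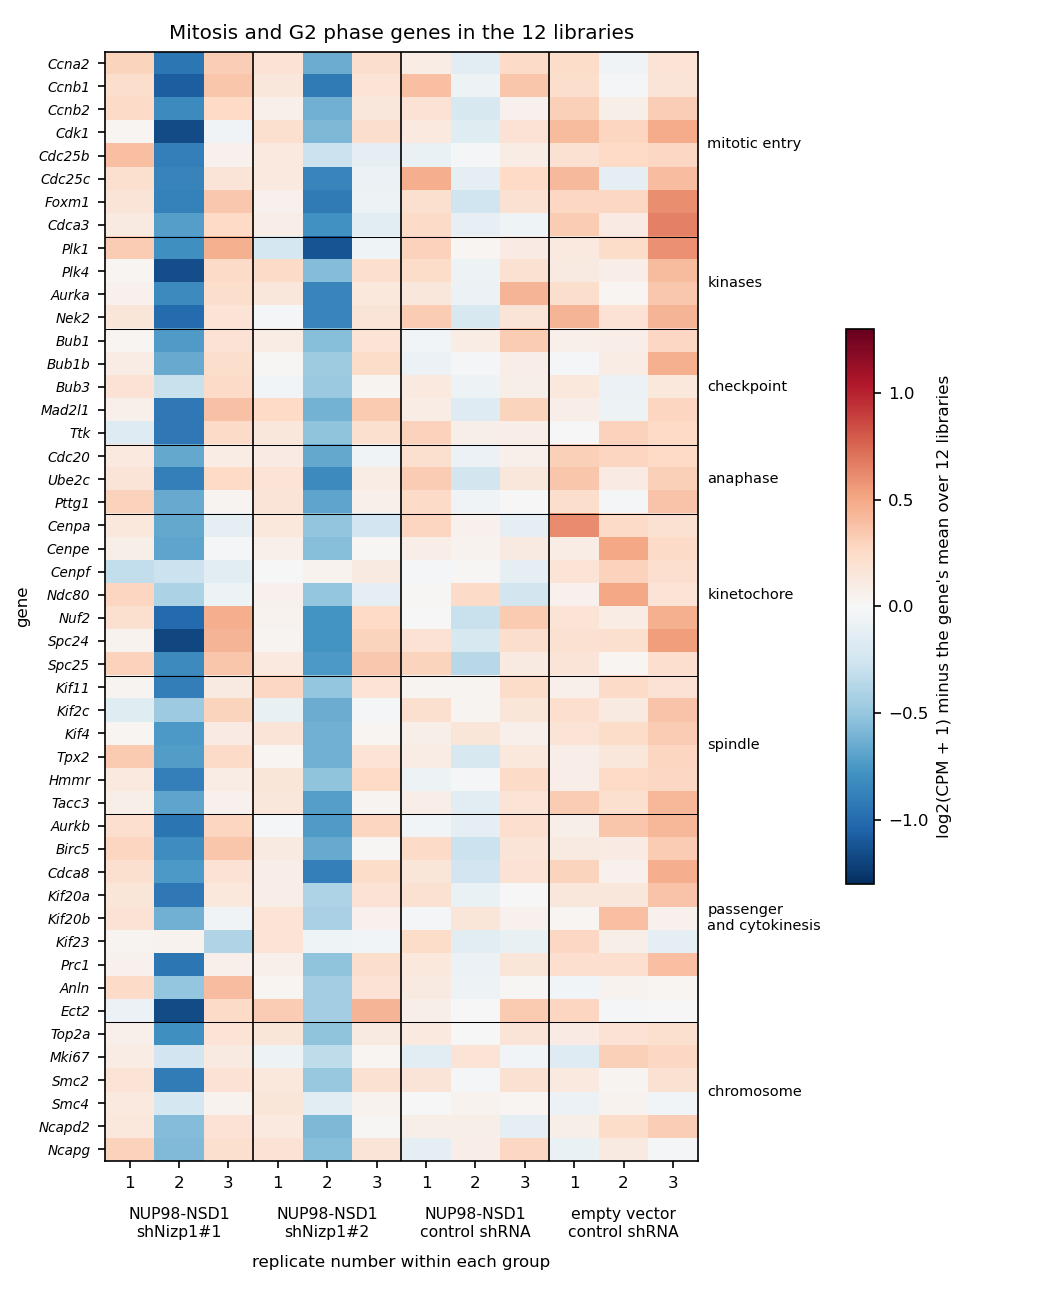
Each cell gives log2(CPM + 1) of a gene in a library minus the mean of that gene over the 12 libraries, with genes in rows ordered by role and libraries in columns by group and replicate number. Replicate 2 of shNizp1#1 and replicate 2 of shNizp1#2 are the dark blue columns, and for 46 of the 48 genes they are the 2 lowest libraries.

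The low values came from 1 experiment. For 46 of the 48 genes, replicate 2 of shNizp1#1 and replicate 2 of shNizp1#2 were the 2 lowest of the 12 libraries, and the exceptions were Cenpf and Kif23. The lowest library was replicate 2 of shNizp1#1 for 34 genes and replicate 2 of shNizp1#2 for 12 genes. The ratio of the highest to the lowest library had a median of 2.29 over the 48 genes, with a range from 1.31 (Smc4) to 3.49 (Spc24). Over the other 10 libraries that median was 1.44. The SD of log2(CPM + 1) among the 3 libraries of a group had a median over the 48 genes of 0.57 with shNizp1#1 and 0.42 with shNizp1#2, against 0.17 in NUP98-NSD1 cells with the control shRNA and 0.14 with the empty vector. Over all tested genes these medians were 0.28, 0.28, 0.25 and 0.24 in the same groups. The median of the 48 genes was thus above that of all tested genes in both knockdown groups and below it in both control shRNA groups, with single genes from 0.06 to 0.85 in the knockdown groups and from 0.02 to 0.34 in the control shRNA groups.

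Knockdown of Nizp1 in NUP98-NSD1 cells gave no call among these genes with either shRNA. With shNizp1#1 against the control shRNA, edgeR's quasi-likelihood test called 0 of the 48 genes at an adjusted p under 0.05, where 0% of all tested genes were called, and 0 had an unadjusted p under 0.05. The log2 fold changes ran from -0.37 to 0.08 with a median of -0.16, and 44 of 48 were below 0, against 51.5% of all tested genes. With shNizp1#2 against the control shRNA, 0 of 48 were called, where 0.00834% of all tested genes were, and 0 had an unadjusted p under 0.05. Here the log2 fold changes ran from -0.56 to 0.10 with a median of -0.13, and 44 of 48 were below 0, against 50.4% of all tested genes. With the replicate number as a block, edgeR still called 0 of the 48 genes with either shRNA, where 1.63% of tested genes were called with shNizp1#1 and 0.217% with shNizp1#2. In that fit 3 of the 48 had an unadjusted p under 0.05 with shNizp1#1 (Cdk1, Cenpa and Cenpf), against 12.3% of all tested genes, and 6 of the 48 with shNizp1#2, against 11.1%. The smallest adjusted p was 0.335 with shNizp1#1 and 0.274 with shNizp1#2. DESeq2 and limma-voom also called 0 of the 48 in both comparisons, with and without the block. Leaving out 1 library moved the median of the 48 between -0.30 and 0.08 with shNizp1#1 and between -0.27 and 0.05 with shNizp1#2, and it turned only without replicate 2 of the shRNA concerned (with the block it turned in no such fit). Both comparisons share the libraries with the control shRNA.

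Within experiments the same comparisons were far from uniform. Set against the control shRNA, shNizp1#1 gave a median difference in log2(CPM + 1) over the 48 genes of -0.001 in experiment 1, -0.72 in experiment 2 and 0.03 in experiment 3. With shNizp1#2 it was -0.03 in experiment 1, -0.55 in experiment 2 and -0.001 in experiment 3. The difference in experiment 2 corresponds to 0.606 times the control level with shNizp1#1 and 0.683 times with shNizp1#2. In experiment 2, shNizp1#1 put 47 of the 48 genes below the control shRNA and shNizp1#2 put 46 there. A difference below -0.5 was found in experiment 2 for 40 of 48 genes with shNizp1#1, against 13.1% of all tested genes, and for 29 of 48 with shNizp1#2, against 9.09%. With shNizp1#1, 0 of 48 genes passed that size in experiments 1 and 3, against 7.95% of all tested genes in experiment 1 and 4.92% in experiment 3. With shNizp1#2, 1 of 48 passed it in experiment 1 (Plk1), against 5.39%, and 0 in experiment 3, against 4.46%. Each experiment has 1 library a group, so these differences have no test of their own. Without the libraries numbered 2, the median log2 fold change over the 48 genes was 0.03 with shNizp1#1 and -0.02 with shNizp1#2.

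**Figure D2:**
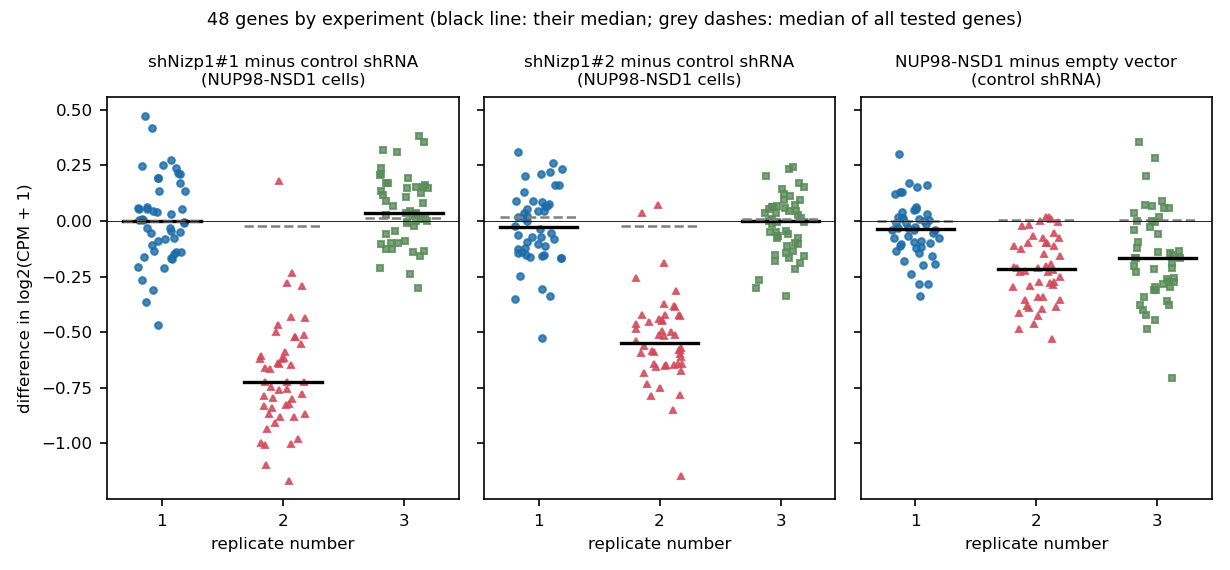
The vertical axis gives the difference in log2(CPM + 1) between 2 libraries of the same replicate number, with 1 point for each of the 48 genes, and the panels give shNizp1#1 and shNizp1#2 against the control shRNA and NUP98-NSD1 against the empty vector. The black median line lies at -0.72 and -0.55 for the 2 shRNAs at number 2 and between -0.03 and 0.03 at numbers 1 and 3, while the dashed medians of all tested genes stay near 0.

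Other genes moved in the same 2 libraries. The summed level of 21 S phase genes, among them the MCM helicase subunits and the sliding clamp Pcna, was 1251 CPM in replicate 2 of shNizp1#1 and 1371 CPM in replicate 2 of shNizp1#2, against 2005 to 3095 CPM in the other 10 libraries. In experiment 2 their median difference from the control shRNA was -0.71 with shNizp1#1, with 21 of 21 genes lower, and -0.55 with shNizp1#2, with 20 of 21 lower. A further 30 spindle and kinetochore genes outside the 48 had medians of -0.68 with shNizp1#1 and -0.54 with shNizp1#2 there, with 29 of 30 lower in each. Other lists lay nearer to 0 in experiment 2. The medians of 31 other checkpoint, mitotic entry and mitotic exit genes were -0.22 with shNizp1#1 and -0.24 with shNizp1#2, with 23 of 31 lower in each. For 17 other cytokinesis, condensin and cohesin genes they were -0.53 with shNizp1#1 and -0.31 with shNizp1#2, and for 23 regulators of cell cycle genes -0.25 and -0.20 with the same shRNAs. The summed level of 7 neutrophil markers (Camp, Ngp, Ltf, Elane, Mpo, S100a8 and S100a9, none at 0 in every library) was highest at number 2 in all 4 groups. It was 731 CPM with shNizp1#1, 1232 CPM with shNizp1#2, 1802 CPM in NUP98-NSD1 cells with the control shRNA and 1760 CPM with the empty vector at number 2. At number 1 it was 189 to 452 CPM over the groups and at number 3 it was 0.972 to 5.43 CPM. With shNizp1#1 the median difference of the 7 from the control shRNA was -1.39 in experiment 2, with 7 of 7 lower. It was about the same in experiment 1 (-1.36, with 6 of 7 lower), so it was not confined to number 2. With shNizp1#2 it was -0.28 in experiment 2 (6 of 7 lower) and -0.48 in experiment 1 (5 of 7 lower). A group of 5 monocyte markers (Lyz2, Csf1r, Ccr2, Ly6c2 and Cd68) summed to 3288 CPM in replicate 2 of shNizp1#1 and 3390 CPM in replicate 2 of shNizp1#2, against 2588 CPM in replicate 2 of the NUP98-NSD1 cells with the control shRNA and 1901 CPM in that of the empty vector. Most of that sum was Lyz2, the lysozyme of myeloid cells, with 2740 CPM with shNizp1#1 and 2658 CPM with shNizp1#2, against 1900 CPM with the control shRNA in NUP98-NSD1 cells. The median difference of the 5 in experiment 2 was -0.14 with shNizp1#1, with 4 of 5 lower, and 0.47 with shNizp1#2, with 1 of 5 lower. All 4 megakaryocyte markers were higher there with both shRNAs, with medians of 0.44 with shNizp1#1 and 0.75 with shNizp1#2. With shNizp1#2 all 4 were also higher in experiment 3, with a median of 0.32. At number 2, Gp9 had 4.10 CPM with the control shRNA in NUP98-NSD1 cells, 4.74 CPM with shNizp1#1 and 5.56 CPM with shNizp1#2. In the same order, Ppbp had 5.59, 14.0 and 14.1 CPM, Pf4 had 36.3, 60.3 and 81.5 CPM, and Itga2b had 1563, 1645 and 1755 CPM. Replicate 2 of shNizp1#1 was the library with the fewest counts (3586538), whereas replicate 2 of shNizp1#2 had 6454564. The part of these other cell types, and of depth, in the low values was not tested.

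The genes of mitotic entry lay below the control shRNA in experiment 2 with both shRNAs, without exception. Ccnb1, the cyclin B1 that activates Cdk1, had 90.6, 36.3 and 99.6 CPM in replicates 1, 2 and 3 with shNizp1#1, 85.8, 40.5 and 87.6 CPM with shNizp1#2, and 102, 73.8 and 99.9 CPM in NUP98-NSD1 cells with the control shRNA. Replicate 2 was thus the lowest in each group, the knockdown values of replicate 2 lay below every control value, and the other knockdown libraries overlapped the control. The unblocked log2 fold change of Ccnb1 was -0.28 ± 0.36 (SE) with shNizp1#1 and -0.37 ± 0.36 with shNizp1#2, with an edgeR adjusted p of 1.0 for each. Cdk1, the kinase itself, had 116, 50.8 and 111 CPM with shNizp1#1, 132, 76.2 and 134 CPM with shNizp1#2, and 125, 103 and 131 CPM with the control shRNA in NUP98-NSD1 cells. Within experiment 2 the difference of Cdk1 in log2(CPM + 1) from the control shRNA was -1.0 with shNizp1#1 and -0.43 with shNizp1#2. Cdc25c, a phosphatase that activates Cdk1, had 21.2, 9.49 and 20.6 CPM with shNizp1#1, 19.9, 9.58 and 17.2 CPM with shNizp1#2, and 25.6, 16.6 and 22.0 CPM with the control shRNA. Of the 8 genes of this step, which also include Ccna2, Ccnb2, Cdc25b, Foxm1 and Cdca3, the differences in experiment 2 ran from -1.0 to -0.61 with shNizp1#1 and from -0.85 to -0.26 with shNizp1#2.

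The mitotic kinases Plk1, Plk4, Aurka and Nek2 had the most negative mean difference of the 8 roles in experiment 2 with each shRNA. Plk1, the polo-like kinase that acts from entry to cytokinesis, had 78.3, 35.2 and 85.8 CPM with shNizp1#1, 52.7, 28.0 and 59.4 CPM with shNizp1#2, and 76.2, 63.2 and 66.9 CPM with the control shRNA in NUP98-NSD1 cells. All shNizp1#2 libraries lay below all control shRNA libraries, while those of shNizp1#1 spread to both sides. Its log2 fold change with shNizp1#2 was -0.56 ± 0.33 (SE; edgeR adjusted p = 1), and with the block it was -0.62 ± 0.23 (edgeR adjusted p = 0.39). Between the shRNAs, Plk1 was lower with shNizp1#2 than with shNizp1#1 in 3 of 3 experiments, with a log2 fold change of -0.51 ± 0.33 (SE) and an edgeR adjusted p of 1.0, or 0.359 with the block. Plk4, which licenses centriole duplication, differed from the control shRNA in experiment 2 by -1.10 with shNizp1#1 and -0.50 with shNizp1#2. Aurka, the spindle pole kinase, differed there by -0.75 with shNizp1#1 and -0.78 with shNizp1#2.

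**Figure D3:**
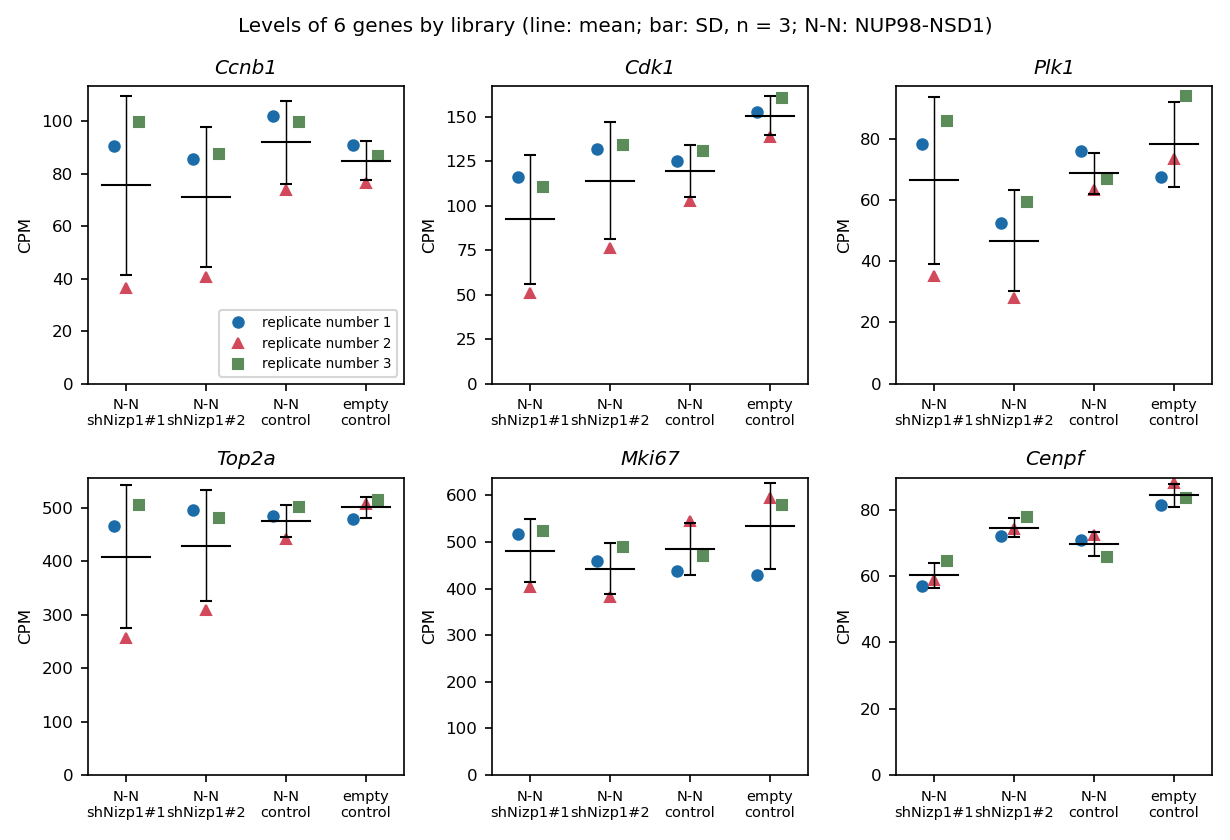
Points give the CPM of 6 genes in each library, with symbols for replicate numbers, a line for the mean of the group and a bar for the SD (n = 3). For Ccnb1, Cdk1, Plk1 and Top2a the triangle of replicate 2 lies far below the other points in both knockdown groups, and for Cenpf the points stay within 57.1 and 88.1 CPM.

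Checkpoint and anaphase genes followed the same course at different depths. Among the checkpoint genes Bub1, Bub1b, Bub3, Mad2l1 and Ttk, differences in experiment 2 ran from -1.0 (Ttk) to -0.23 (Bub3) with shNizp1#1 and from -0.64 (Bub1) to -0.42 (Bub3) with shNizp1#2. Bub3, which recruits Bub1 to kinetochores and is also known to act outside mitosis, had 163, 117 and 170 CPM with shNizp1#1, 139, 102 and 147 CPM with shNizp1#2, and 157, 137 and 152 CPM with the control shRNA. The anaphase genes Cdc20, Ube2c and Pttg1 (activator and E2 enzyme of the anaphase-promoting complex, and securin) stayed close to each other, between -0.65 and -0.59 with shNizp1#1 and between -0.64 and -0.58 with shNizp1#2.

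At kinetochores and on the spindle the depth of the low values differed by gene. Spc24, of the Ndc80 complex that grips microtubules, had 29.5, 12.0 and 39.0 CPM with shNizp1#1, 29.2, 16.2 and 35.1 CPM with shNizp1#2, and 32.6, 24.6 and 33.6 CPM with the control shRNA. Its partner Spc25 differed in experiment 2 by -0.47 with shNizp1#1 and -0.39 with shNizp1#2, against -0.98 and -0.57 for Spc24 with the same shRNAs. Cenpa had 122, 69.2 and 102 CPM with shNizp1#1, 122, 77.4 and 92.7 CPM with shNizp1#2, and 134, 115 and 102 CPM with the control shRNA. Its differences from the control in experiments 1, 2 and 3 were -0.14, -0.72 and -0.0016 with shNizp1#1, so it was level in experiment 3. With shNizp1#2 they were -0.14, -0.56 and -0.14. The blocked edgeR adjusted p-values of Cenpa were 0.365 for the first shRNA and 0.397 for the second. The 6 spindle genes, which encode the motors Kif11, Kif2c and Kif4 and the microtubule-binding proteins Tpx2, Hmmr and Tacc3, differed in experiment 2 by -0.94 to -0.51 with shNizp1#1 and by -0.79 to -0.42 with shNizp1#2. Kif2c, a motor that shortens microtubules, had 45.0, 36.0 and 61.7 CPM with shNizp1#1, 47.0, 31.8 and 49.7 CPM with shNizp1#2, and 58.3, 51.8 and 56.5 CPM with the control shRNA. All shNizp1#2 libraries lay below all control libraries, with a log2 fold change of -0.37 ± 0.21 (SE; edgeR adjusted p = 1, and 0.274 with the block). Over the 48 genes, groups that did not overlap were found for Kif2c and Plk1 with shNizp1#2 (2 of 48 lower, against 3.04% of all tested genes) and for Cenpf with shNizp1#1 (1 of 48 lower, against 4.42%).

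The genes of the chromosomal passenger complex and of cytokinesis held both extremes of experiment 2 with shNizp1#1. Ect2, the exchange factor that starts the cleavage furrow, had 85.2, 39.4 and 106 CPM with shNizp1#1, 113, 65.1 and 122 CPM with shNizp1#2, and 94.4, 89.7 and 114 CPM with the control shRNA. Its difference of -1.17 with shNizp1#1 in experiment 2 was the most negative of the 48, against -0.46 with shNizp1#2, for which Plk1 was the most negative at -1.15. Kif23, a motor of the central spindle, had 138, 139 and 102 CPM with shNizp1#1, 153, 129 and 132 CPM with shNizp1#2, and 159, 123 and 126 CPM with the control shRNA. It was the only one of the 48 above the control in experiment 2 with both shRNAs, by 0.18 with shNizp1#1 and 0.07 with shNizp1#2. Prc1, another cytokinesis gene, differed by -0.87 with shNizp1#1 and -0.44 with shNizp1#2. The passenger genes Aurkb, Birc5 and Cdca8 differed by -0.82 to -0.50 with shNizp1#1 and by -0.64 to -0.37 with shNizp1#2.

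Among the chromosome genes, the proliferation marker Mki67 differed by less than Top2a in experiment 2 with shNizp1#1 (-0.44 against -0.79) and by about as much with shNizp1#2 (-0.52 against -0.51). Top2a had 466, 256 and 505 CPM with shNizp1#1, 496, 310 and 482 CPM with shNizp1#2, and 484, 442 and 501 CPM with the control shRNA in NUP98-NSD1 cells. Mki67 had 516, 404 and 523 CPM with shNizp1#1, 459, 382 and 489 CPM with shNizp1#2, and 438, 546 and 470 CPM with the control shRNA. Replicate 2 was thus the lowest Mki67 library in both knockdown groups and the highest with the control shRNA. The condensin subunit Smc4 differed in experiment 2 by -0.28 with shNizp1#1 and -0.19 with shNizp1#2, while its partner Smc2 differed by -0.88 with shNizp1#1 and -0.46 with shNizp1#2. The 31 genes with a CHR word in the promoter window had a median difference in experiment 2 of -0.67 with shNizp1#1 and -0.54 with shNizp1#2, and the 9 without one had -0.72 with shNizp1#1 and -0.58 with shNizp1#2.

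**Figure D4:**
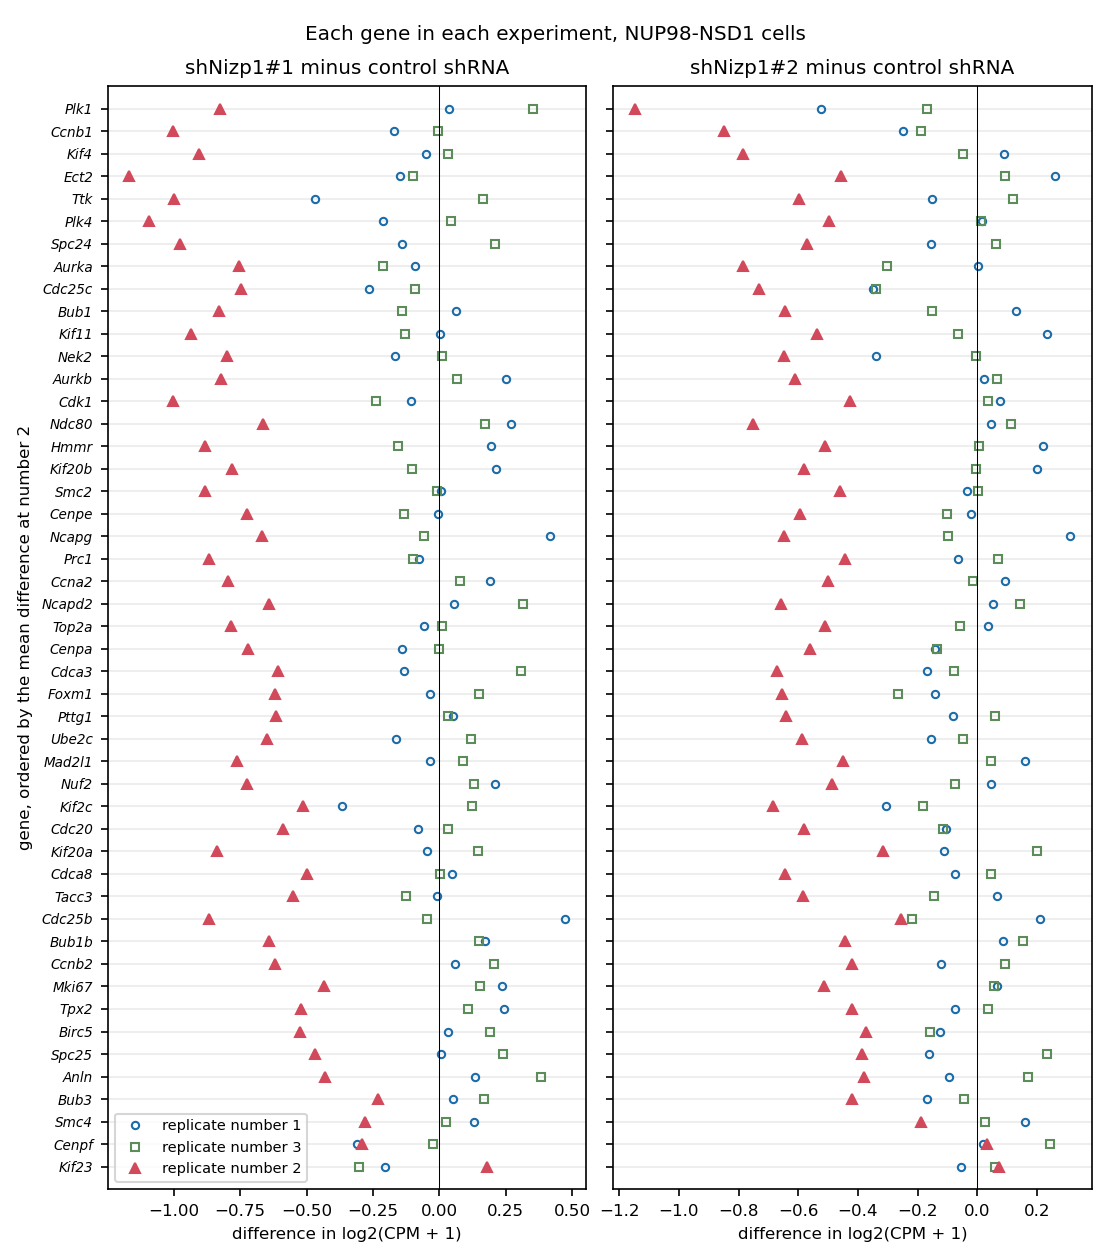
Each row is 1 of the 48 genes, the horizontal axis gives its difference in log2(CPM + 1) from the control shRNA in NUP98-NSD1 cells, and filled triangles mark replicate number 2 while open circles and squares mark numbers 1 and 3. The triangles lie left of both other symbols for 46 genes with each shRNA, Cenpf and Kif23 being the exceptions.

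Among the 48 genes, Cenpf was the one whose values went most with the groups. It had 57.1, 58.9 and 64.4 CPM with shNizp1#1, 71.9, 74.0 and 77.8 CPM with shNizp1#2, 71.0, 72.3 and 65.5 CPM in NUP98-NSD1 cells with the control shRNA, and 81.4, 88.1 and 83.4 CPM with the empty vector. The shNizp1#1 libraries were the lowest 3 and the empty vector libraries the highest 3, while shNizp1#2 and the control shRNA in NUP98-NSD1 cells overlapped. It was the 1 gene of the 48 with all shNizp1#2 libraries above all shNizp1#1 libraries, against 4.87% of all tested genes. Group accounted for 90.1% of the variance of log2(CPM + 1) of Cenpf, the largest share of the 48, and replicate number for 1.93%. The share of all tested genes that reach 90.1% was not counted. Over the 48 genes the medians were 21% for group and 47.5% for replicate number, close to the 20.6% and 48.7% of all tested genes. Cenpf was not called between any groups in the fits to all 12 libraries, with or without the block. Its log2 fold change was -0.21 ± 0.10 (SE) with shNizp1#1 against the control shRNA and -0.28 ± 0.10 with NUP98-NSD1 against the empty vector, with edgeR adjusted p of 1.0 for each and, with the block, of 0.389 and 0.309.

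NUP98-NSD1 cells were compared with empty vector cells, both with the control shRNA, to see what the fusion itself changed. None of the 48 genes was called (0 of 48 by edgeR, where 0.00834% of all tested genes were called, and 1 of 48 at an unadjusted p under 0.05). Most lay slightly lower with the fusion: 43 of 48 log2 fold changes were below 0, against 48.7% of all tested genes, with a median of -0.15 and a range from -0.35 to 0.11. Leaving out 1 library moved that median between -0.20 and -0.09, and between -0.28 and 0.0066 with the block, where it turned without replicate 2 of the empty vector. With the block 0 of 48 were called, where 0.275% of tested genes were, 2 of 48 had an unadjusted p under 0.05 (Cenpf and Cenpa), against 11% of all tested genes, and the smallest adjusted p was 0.309. DESeq2 and limma-voom also called 0 of 48. The medians within experiments 1, 2 and 3 were -0.04, -0.22 and -0.17, and 22 of the 48 genes were lower in all 3. In these experiments 64.6%, 93.8% and 77.1% of the 48 were lower, against 50.4%, 49.8% and 48.6% of all tested genes. The share of all tested genes lower in all 3 was not counted. Among the 48, 8 (16.7%) had all fusion libraries below all empty vector libraries, namely Cdc20, Cdc25b, Cdk1, Cenpf, Foxm1, Kif4, Prc1 and Tacc3, against 3.74% of all tested genes.

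The genes behind that count differed by small amounts. Cdk1 had 125, 103 and 131 CPM with NUP98-NSD1 and 153, 139 and 161 CPM with the empty vector, a log2 fold change of -0.33 ± 0.29 (SE; edgeR adjusted p = 1.0). Foxm1, the transcription factor that drives many G2 genes, had 106, 76.4 and 106 CPM with NUP98-NSD1 and 111, 111 and 140 CPM with the empty vector. Tacc3, which strengthens spindle microtubules, had 109, 93.4 and 116 CPM with NUP98-NSD1 and 129, 119 and 139 CPM with the empty vector. Ccnb1 did not share this order, with 102, 73.8 and 99.9 CPM with NUP98-NSD1 and 91.1, 76.6 and 86.9 CPM with the empty vector. Plk1 had 76.2, 63.2 and 66.9 CPM with NUP98-NSD1 against 67.6, 73.4 and 94.0 CPM with the empty vector, so its groups overlapped. Top2a had 484, 442 and 501 CPM with NUP98-NSD1 and 479, 508 and 516 CPM with the empty vector. Mki67 had 438, 546 and 470 CPM with NUP98-NSD1 and 428, 595 and 579 CPM with the empty vector, again with overlap. Cdca3, a G2 gene whose product helps to degrade Wee1, had 82.6, 63.9 and 66.5 CPM with NUP98-NSD1 and 87.0, 74.6 and 109 CPM with the empty vector.

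Between the shRNAs the 48 genes were on balance level. With shNizp1#2 against shNizp1#1, edgeR called 0 of 48 (0.00834% of all tested genes were called), with 1 of 48 at an unadjusted p under 0.05. With the block it called 0 of 48, where 2.37% of tested genes were called, and 2 of 48 had an unadjusted p under 0.05 (Cenpf and Bub3), against 14.8% of all tested genes. DESeq2 and limma-voom called 0 of 48 with and without the block. The median log2 fold change was -0.03, and 28 of 48 were below 0, but leaving out 1 library moved that median between -0.28 (without replicate 2 of shNizp1#1) and 0.18 (without replicate 2 of shNizp1#2). In 3 of 3 experiments, 7 genes were lower with shNizp1#2 (Bub3, Cdca3, Foxm1, Mki67, Ncapd2, Ndc80 and Plk1) and 6 were higher (Cdk1, Cenpf, Ect2, Hmmr, Kif11 and Prc1). The share of all tested genes with 1 direction in 3 of 3 experiments was not counted between the shNizp1 groups. Fitted to these groups alone with the block, the test called Plk1 lower (log2 fold change -0.51, edgeR adjusted p = 0.00176) and Cdk1, Cenpf and Ect2 higher (log2 fold changes 0.31, 0.30 and 0.39), a fit in which 9.71% of tested genes were called.

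Comparisons between experiments over all 4 groups in the blocked fit were made as well. Experiment 2 against experiment 1 gave 25 of 48 genes lower and 0 higher, where 12.6% of all tested genes were called lower, 13.4% higher and 25.9% in either direction. Cdc25c (log2 fold change -0.82 ± 0.15 SE, edgeR adjusted p = 0.00148), Ccnb1 (-0.73), Ube2c (-0.70) and Spc25 (-0.69) fell most. Experiment 3 against the mean of experiments 1 and 2 gave 15 of 48 genes higher and 1 lower, where 20.8% of all tested genes were called higher, 23.2% lower and 44% in either direction. Nuf2 (log2 fold change 0.57 ± 0.14 SE, edgeR adjusted p = 0.00621), Spc24 (0.56) and Mad2l1 (0.48) rose most, and Kif23 (-0.24) fell. These counts changed with the libraries kept, and every such fit has fewer libraries. Without NUP98-NSD1 with the control shRNA, experiment 2 against 1 called 16 of 48, where 12.6% of tested genes were called. Without both shNizp1 groups, experiment 2 against 1 called 0 of 48, where 6.34% of tested genes were called, and experiment 3 called 1, Nuf2, where 18.3% were. Without only the shNizp1 libraries numbered 2, experiment 2 against 1 called 3 of 48 (Cdc25c and Ube2c lower, Mki67 higher), where 11.1% of tested genes were called. Experiment 3 called 9 of 48 there (6 higher, 3 lower), where 33.9% were. Of the 21 S phase genes, 19 rose in experiment 3 and 6 fell in experiment 2 against 1.

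Genes of the same processes outside the 48 were followed in further lists. With shNizp1#1 against the control shRNA, the blocked fit called 3 of 31 other checkpoint, mitotic entry and mitotic exit genes, all lower, where 1.63% of all tested genes were called, and the unblocked fit called 0 of 31. Trip13, the ATPase that disassembles checkpoint complexes, had 7.38, 5.30 and 10.8 CPM with shNizp1#1 and 18.6, 21.1 and 36.5 CPM in NUP98-NSD1 cells with the control shRNA. These groups did not overlap and the log2 fold change was -1.69 ± 0.18 (SE; edgeR adjusted p = 0.001 with the block and 0.49 without). Mad2l1bp, the adaptor that brings Trip13 to its substrate, fell with a log2 fold change of -0.57 ± 0.13, and Ensa, an inhibitor of the phosphatase that opposes Cdk1, with -0.49 ± 0.09 (edgeR adjusted p = 0.0414 and 0.0116 with the block, and 1.0 and 0.49 without). With shNizp1#2, Trip13 had 20.5, 14.4 and 28.9 CPM, and 0 of these 31 genes were called in either fit by edgeR, with 0 at an unadjusted p under 0.05. In the direct comparison of shNizp1#2 with shNizp1#1, Trip13, Mad2l1bp and Ensa were called higher in the blocked fit, with log2 fold changes of 1.44, 0.74 and 0.64 (edgeR adjusted p = 0.00107, 0.00686 and 0.00201), and without the block none of the 3 was called. Of the 30 other spindle and kinetochore genes, Spdl1, which brings dynein to kinetochores, was called lower with shNizp1#1 (1 of 30, log2 fold change -0.89, edgeR adjusted p = 0.0454 with the block and 1.0 without, where 1.63% of all tested genes were called with the block). None of 17 cytokinesis, condensin and cohesin genes, 23 regulators such as the MuvB, E2F and NF-Y genes, or 21 S phase genes was called by edgeR with NUP98-NSD1 or with either shRNA in either fit, and Tfdp2 was the 1 regulator called between the shRNAs.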

How the data were processed

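The authors deposited whole-number read counts per gene for 12 libraries. Per the labels' protocols, a stranded TruSeq mRNA kit made the libraries (1 µg RNA each), read as single 75 nt reads. Per the submitters' processing notes, reads passed Trimmomatic 0.32, STAR 2.5.3a (mm10) and featureCounts, whose strand setting, version and annotation were not given in the sources used here. Exons of 11 of the 48 genes overlap a gene on the opposite strand (among them Kif20a with Cdc23), so their reads may not be told apart.

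Counts were tested with edgeR 4.0.16 (R 4.3.3) on all 12 libraries, with 1 mean per group, a filter on low counts by group design, TMM scaling and Benjamini-Hochberg adjusted p under 0.05 over 11994 genes. SEs came from the F statistic. All 12 libraries correlated best with one of their own number, so a second fit took replicate number as a block. No animals are named for the libraries, so p-values measure only how these libraries vary, and no 2 replicates agreed within sampling noise. CPM has a pseudocount of 1 on the log2 scale, and TPM uses the lengths in the table. Alternatives were RLE and upper-quartile scaling, no filter, DESeq2 1.42.0, limma-voom 3.58.1, 2 groups alone, and libraries, groups or experiments left out. Scripts were tested on simulated data. Values in every library were given for Ccnb1, Cdk1, Plk1, Mki67 and Top2a. They were also given for some, not all, of the called genes or, with none called, of those with the 3 smallest p. A few genes (such as Ect2, Kif23, Spc24 and Foxm1) were chosen after their values were seen. The genes and lists were chosen with earlier results of these data known. Sequences are from RefSeq (GRCm38.p6), and 8 of the 48 genes were not matched.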

Additional observations from a re-analysis of the deposited data

Results flagged for a closer look

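Cenpf lay below the control shRNA in NUP98-NSD1 cells in 3 of 3 experiments with shNizp1#1 and above it in 3 of 3 with shNizp1#2, and neither difference passed a test. With shNizp1#1 its differences in log2(CPM + 1) were -0.31, -0.29 and -0.02 in experiments 1, 2 and 3, and with shNizp1#2 they were 0.02, 0.03 and 0.24. The difference itself, shNizp1#2 against shNizp1#1, had a log2 fold change of 0.31 ± 0.10 (SE) and was positive in 3 of 3 experiments. It did not pass the correction, with an edgeR adjusted p of 0.668, or 0.112 with the replicate block. It passed with an edgeR adjusted p of 0.0354 when only these groups were fitted with the block, a fit that called 9.71% of tested genes.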

How the results depend on the processing

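All 4 comparisons between groups kept 0 of the 48 genes called under RLE and upper-quartile scaling, DESeq2 and limma-voom, with and without the replicate block, and when any 1 library was left out. With the block and no filter, edgeR called 2 with shNizp1#1 (Cdk1 and Ect2), 2 with shNizp1#2 (Ccnb1 and Plk1) and 2 between the shRNAs (Plk1 and Ect2). In the same order, these fits called 2.16%, 1.56% and 2.64% of all genes. With the block and the shNizp1 groups alone, edgeR called 4 between the shRNAs, where 9.71% of tested genes were called. The block changed no other call among the 48. For experiment 3 against 1 and 2, the 16 genes called became 28 with upper-quartile scaling, 34 with no filter, 24 with DESeq2 and 27 with limma-voom. The share of all tested genes called was 44% in the main fit and 45.7%, 22.9%, 37.7% and 45.5% in these. The 16 genes became 6 without shNizp1#1 (34.4% of all tested genes called), 5 without shNizp1#2 (27.2%) and 25 without the empty vector (45.1%). They became 1 without both shNizp1 groups (18.3%) and 9 without the shNizp1 libraries numbered 2 (33.9%). For experiment 2 against 1, the 25 genes became 36 with no filter (14.6% of all genes called), 28 with DESeq2 (21%) and 28 with limma-voom (27.8%). They became 30 without the empty vector (30.6%), 14 without shNizp1#1 (16.2%) and 2 without shNizp1#2 (9.42%). Without NUP98-NSD1 with the control shRNA they became 16 (12.6%). They became 0 without both shNizp1 groups (6.34%) and 3 without the shNizp1 libraries numbered 2 (11.1%). The main fit called 25.9% of all tested genes. Leaving out both shNizp1 groups, their libraries numbered 2, or whole experiments was chosen after seeing the data. The cause of the changes with scaling, filter and tool was not tested.

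Of the recomputed log2 fold changes of named genes between groups, 915 kept their sign and stayed uncalled, 7 kept it and were now called, and 39 uncalled ones turned. Over all fits that left out 1 library, with and without the block, the log2 fold change with NUP98-NSD1 against the empty vector ran from -0.042 to 0.34 for Ccnb1, -0.37 to 0.031 for Plk1 and -0.21 to 0.12 for Top2a. With shNizp1#1 against the control shRNA it ran from -0.53 to 0.050 for Ccnb1, -0.12 to 0.13 for Mki67, -0.31 to 0.26 for Plk1 and -0.40 to 0.028 for Top2a. With shNizp1#2 it ran from -0.20 to 0.15 for Cdk1, -0.22 to 0.0044 for Mki67 and -0.26 to 0.035 for Top2a. Between the shRNAs it ran from -0.42 to 0.18 for Ccnb1 and -0.18 to 0.25 for Top2a. Without all libraries numbered 2, Plk1 was 0.20 (0.19 with the block) and Mki67 0.19 (0.19) with shNizp1#1, and Cdk1 was 0.049 (0.049) and Mki67 0.054 (0.054) with shNizp1#2. With the block, Ccnb1 between the shRNAs was 0.0084 without the libraries numbered 3, and Mki67 with shNizp1#1 was 1e-04 when only its groups were fitted. A level of 3 counts was 0.417 to 0.837 CPM per library, and the lowest count of any of the 48 genes in a library was 34.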
